A study of Homo sapiens with 6 samples.

Results

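The genes described here are the ligands and receptors of axon guidance, chosen by their symbols from the protein-coding genes of the deposited count table. They comprise the SLIT ligands and ROBO receptors, the netrins with DCC and the UNC5 receptors, the semaphorins with plexins and neuropilins, and the ephrins with the EPHA and EPHB receptors. In all, 69 of the 58735 genes in the table fell under this rule. RNAseq was done on C4-2B, an established line of castration resistant prostate cancer cells, and on RC4-2B, a cabazitaxel (CBZ) resistant subclone raised from it. RC4-2B came from cycles of CBZ treatment and recovery in which the concentration rose from 0.1 nM to 20 nM over 4 months. C4-2B had no such selection. Each line was sequenced in 3 libraries labelled as biological replicates, from cells grown in RPMI for 72 h with no drug named for that time. RC4-2B is 1 subclone, so an effect of CBZ selection and a difference that its founder cells already carried cannot be told apart.

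These proteins steer growing axons, and epithelial and tumour cells use the same ligands and receptors for contact, migration and survival. SLIT proteins are secreted and act through ROBO receptors, mostly as repellents. Netrins are laminin-related secreted ligands that attract through DCC and repel through the UNC5 receptors, and DCC and UNC5 proteins are also known as dependence receptors, which can promote cell death when netrin is absent. Secreted class 3 semaphorins bind a neuropilin together with a plexin, whereas membrane-anchored semaphorins mostly bind plexins directly. Ephrins are held on the cell surface and signal in both directions with EPH receptor tyrosine kinases of the neighbouring cell.

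The libraries held 15707134 to 18052517 counts on genes. The floor of detection was set at 3 counts, equal to 0.170 to 0.188 CPM (counts per 1e+06 counts of the TMM-scaled library total), and covers counting error only. All 10 luminal prostate markers on the list, among them KLK3, FOLH1 and HOXB13, could be tested in these prostate cells, and KLK3 and TMPRSS2 were called lower in RC4-2B. The summed level of this list was 3927 to 4157 CPM in C4-2B and 2815 to 2903 CPM in RC4-2B, and the part of this difference in the results that follow was not tested. Of 8 neuronal and neuroendocrine markers 2 could be tested and neither was called, and their summed level was 9.11 to 10.9 CPM in C4-2B and 7.53 to 11.3 CPM in RC4-2B. All 4 immune markers were at or under the floor in every library, as were 2 of 3 basal epithelial, 3 of 6 fibroblast and 3 of 4 endothelial markers, and no gene of these lists was called. The endothelial sum, mostly from VWF, was 7.47 to 8.14 CPM in C4-2B and 3.70 to 5.07 CPM in RC4-2B, and the fibroblast sum 24.5 to 27.9 and 26.8 to 41.3 CPM. RC4-2B replicate 2 stood apart from the other RC4-2B libraries along the GC content of transcripts. Where leaving it out changed the call of a member, values are given with and without it where that gene is described. It also moved fold changes, which are given both ways for some genes only. A value with no setting named is from all 6 libraries.

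Of the 69 genes, 45 had enough counts to be tested and 24 did not. Genes were called at an adjusted p-value under 0.05 in the edgeR quasi-likelihood test, adjusted by Benjamini-Hochberg over 15054 tested genes. By this measure 2 of the 45 were higher in RC4-2B, the receptor ROBO1 and the ligand EFNB2 (4.44%, against 1.08% of all tested genes). Lower in RC4-2B were 3 of the 45, the netrin receptors UNC5A and UNC5C and the secreted semaphorin SEMA3C (6.67%, against 0.903% of all tested genes). The 45 genes had a median log2 fold change of -0.071, beside 0.0063 over all tested genes, and the sign of the former turned with the correction for GC content (0.085) or without RC4-2B replicate 2 (0.010). Before adjustment, 5 genes were higher and 7 lower at p under 0.05 (11.1% and 15.6%, against 12.0% and 9.42% of all tested genes). The C4-2B and RC4-2B libraries did not overlap in 17 of the 45 genes, or 37.8%, which is near the 34.1% of all tested genes. Because the filter on low counts keeps a gene that is expressed in either line, these shares describe the tested genes and not all 69. UNC5A and UNC5C passed that filter only through C4-2B, where they were high, and the share of lower genes rests in part on them. The same holds for EFNA2 and EFNB3, which were among the 7 lower before adjustment.

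**Figure D1:**
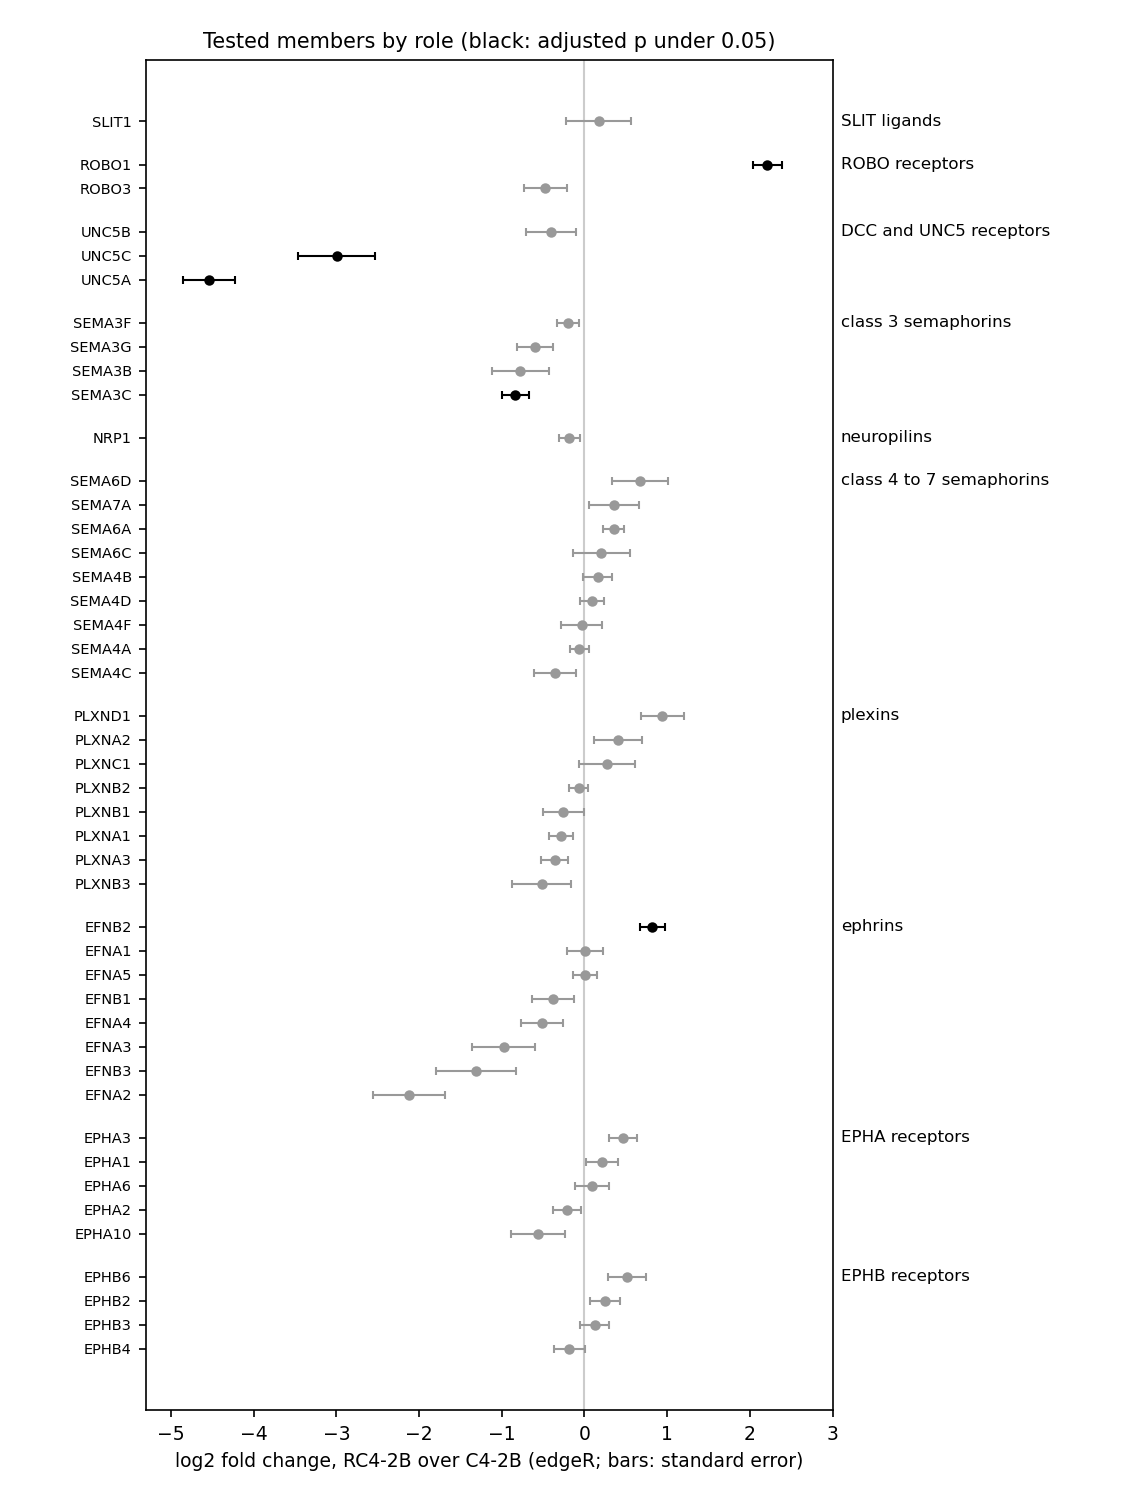
Log2 fold change of RC4-2B over C4-2B for the 45 tested genes, grouped by role, with bars for the standard error from edgeR and black points for an adjusted p-value under 0.05. UNC5A at -4.54 and UNC5C at -3.0 lie far to the left and ROBO1 at 2.21 lies farthest to the right, while most plexins, semaphorins and EPH receptors sit close to 0.

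UNC5A, a repulsive netrin receptor, showed the largest change of the group. It lies on the plus strand of chromosome 5 (GRCh38, 176810477 to 176880898) and had 101, 87 and 132 counts in C4-2B replicates 1 to 3 against 5, 4 and 4 in RC4-2B replicates 1 to 3. Every RC4-2B library was just above the floor and far below every C4-2B library. UNC5A thus passed the filter on low counts only through C4-2B. Its mean level was 6.16 ± 1.30 CPM in C4-2B and 0.259 ± 0.0470 CPM in the resistant line (SD, n = 3). UNC5A was 23.3-fold lower in RC4-2B, with a log2 fold change of -4.54 ± 0.32 (standard error, SE; edgeR adjusted p = 0.000511). The call held with each library left out in turn, with log2 fold changes between -4.69 and -4.38. In bulk RNA, fewer cells with the transcript and less transcript in each cell cannot be told apart, here and for every gene that follows.

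UNC5C, a relative of UNC5A with the same ligand, changed in the same direction from a lower level. It lies on the minus strand of chromosome 4 (95162504 to 95549206). Its counts were 27, 40 and 34 in the C4-2B libraries against 1, 6 and 5 in those of RC4-2B, without overlap between the lines. Like UNC5A, UNC5C passed the filter on low counts only through C4-2B. Its mean level was 1.94 ± 0.33 CPM in C4-2B against 0.233 ± 0.149 CPM in the resistant line (SD, n = 3), with a log2 fold change of -3.0 ± 0.46 (SE, edgeR adjusted p = 0.020). The call was lost when C4-2B replicate 1, 2 or 3 was left out (adjusted p = 0.10, 0.11 and 0.10) or RC4-2B replicate 3 (0.081), and held without RC4-2B replicate 1 (0.033) or 2 (0.0011).

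UNC5B, the third UNC5 receptor that could be tested, did not pass the threshold, although its CPM did not overlap between the lines. It had 53, 56 and 68 counts in the C4-2B libraries against 50, 27 and 52 in those of RC4-2B, with RC4-2B replicate 2 the lowest. Its log2 fold change was -0.41 ± 0.30 (SE, edgeR adjusted p = 0.43), and -0.14 without that library. Per length, in the deposited FPKM values, UNC5A was the highest of the receptors of this class in C4-2B at 1.27 ± 0.28 FPKM (SD, n = 3), above UNC5B at 0.446 ± 0.056 FPKM. In RC4-2B the order was reversed, with UNC5B at 0.341 ± 0.113 FPKM and UNC5A at 0.0539 ± 0.0088 FPKM. UNC5A exceeded UNC5B 2.4- to 3.1-fold in the C4-2B libraries and stood at 0.121 to 0.233 of it in the RC4-2B libraries. The attractive receptor DCC and the fourth UNC5 receptor UNC5D had 0 counts in all 6 libraries. The summed level of DCC and the UNC5 receptors was 1.87 ± 0.32 FPKM in C4-2B and 0.415 ± 0.109 FPKM in RC4-2B.

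The netrins themselves were close to the floor in both lines, and none of the 4 could be tested. NTN1, the founding netrin, had 3, 7 and 4 counts in the C4-2B libraries against 18, 2 and 14 in those of RC4-2B. RC4-2B replicates 1 and 3 were above C4-2B, and replicate 2 was the lowest library of all. NTN1 did not pass the filter on low counts with all 6 libraries. It passed when RC4-2B replicate 2, its lowest library, was left out, and then only through the line where it was high. Its log2 fold change there of 1.82 ± 0.53 (SE, edgeR adjusted p = 0.034) is given as a value and not as a difference between the lines. With all 6 libraries and no filter its edgeR adjusted p-value was 0.30. NTN3, NTN4 and NTN5 had at most 10 counts in any library. The summed netrin level was 0.253 ± 0.055 FPKM in C4-2B and 0.417 ± 0.230 FPKM in RC4-2B (SD, n = 3).

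ROBO1, a receptor of SLIT ligands, was the member with the largest increase. It lies on the minus strand of chromosome 3 (78597240 to 79767815). Its counts were 71, 88 and 80 in the C4-2B libraries against 342, 429 and 308 in those of RC4-2B. Every library of the resistant line was far above every C4-2B library. ROBO1 rose from 4.59 ± 0.38 CPM to 21.3 ± 3.18 CPM (SD, n = 3), 4.64-fold higher (log2 fold change 2.21 ± 0.18, edgeR adjusted p = 0.000954). Leaving out any 1 library kept the call, with log2 fold changes of 2.10 to 2.32.

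No other ROBO receptor was called. ROBO3, a divergent receptor of the family, had 263, 231 and 284 counts in the C4-2B libraries against 242, 124 and 173 in those of RC4-2B, so that the lines overlapped. Its log2 fold change was -0.48 ± 0.26 (SE, edgeR adjusted p = 0.31), and -0.25 without RC4-2B replicate 2. ROBO2 had 0 counts in all libraries, and ROBO4, the endothelial receptor, had at most 1. Per length, ROBO3 was the higher receptor in every C4-2B library, with ROBO1 at 0.174 to 0.246 of its FPKM. In RC4-2B, ROBO1 stood at 0.913, 2.24 and 1.15 times the FPKM of ROBO3 in replicates 1 to 3, so their order differed between libraries.

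The SLIT ligands were scarce in both lines. SLIT1 was the only one that could be tested, with 15, 15 and 19 counts in the C4-2B libraries against 9, 20 and 25 in those of RC4-2B. The lines overlapped, and the log2 fold change was 0.17 ± 0.40 (SE). SLIT2 reached 10 counts in C4-2B replicate 1 and at most 5 in any other library, and SLIT3 never exceeded 2.

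**Figure D2:**
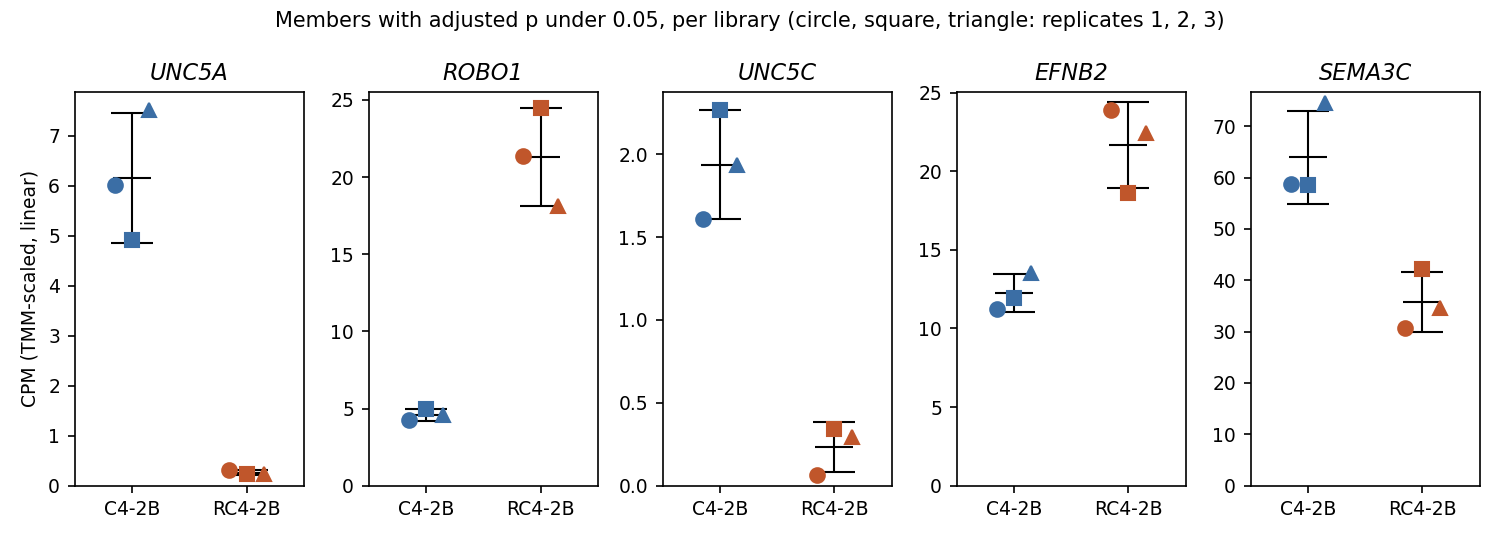
TMM-scaled CPM (linear axes from 0) of the 5 genes with an adjusted p-value under 0.05 in each library, with circles, squares and triangles for replicates 1, 2 and 3 and black bars for the mean and SD of 3 libraries. The C4-2B and RC4-2B libraries do not overlap in any of the 5 genes.

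EFNB2, the ligand ephrin-B2 that binds EPHB receptors and EPHA4, was the other member that rose. It lies on the minus strand of chromosome 13 (106489731 to 106535662). Its counts were 188, 211 and 238 in the C4-2B libraries against 382, 327 and 382 in those of RC4-2B, without overlap. Its level of 12.2 ± 1.19 CPM rose to 21.7 ± 2.71 CPM (SD, n = 3), with a log2 fold change of 0.82 ± 0.16 (SE, edgeR adjusted p = 0.039). The adjusted p became 0.000270 when RC4-2B replicate 2 was left out, but the call was lost without any other single library, at 0.23, 0.21 and 0.14 for C4-2B replicates 1 to 3 and at 0.056 and 0.13 for RC4-2B replicates 1 and 3, and in the fit with the replicate block (0.073). EFNB1, the closest relative, had 243, 253 and 246 counts in the C4-2B libraries against 215, 115 and 221 in those of RC4-2B (log2 fold change -0.38 ± 0.26, edgeR adjusted p = 0.39, and -0.11 without RC4-2B replicate 2). Per length, EFNB1 was the higher of both in every C4-2B library and EFNB2 in every RC4-2B library, with EFNB2 at 0.511 to 0.639 and at 1.14 to 1.88 times EFNB1.

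None of the other ephrins passed the threshold. EFNA2 had 35, 45 and 57 counts in the C4-2B libraries against 15, 4 and 11 in those of RC4-2B, with no overlap. Its log2 fold change was -2.12 ± 0.44 (SE), and its edgeR adjusted p-value was 0.052, above the threshold, and 0.0061 without RC4-2B replicate 2. In the fit with all libraries, EFNA2 passed the filter on low counts only through C4-2B, where it was high. EFNA3 had 348, 330 and 266 counts in the C4-2B libraries against 205, 66 and 191 in those of RC4-2B, a log2 fold change of -0.98 ± 0.38 (SE, edgeR adjusted p = 0.20), and of -0.60 without RC4-2B replicate 2 (adjusted p = 0.017). EFNB3 had 12, 34 and 45 counts against 14, 10 and 11, so C4-2B replicate 1 lay within the RC4-2B range (log2 fold change -1.32 ± 0.48, edgeR adjusted p = 0.18). Like EFNA2, EFNB3 passed the filter on low counts only through C4-2B. The 2 most abundant ephrins had log2 fold changes close to 0 with all libraries. EFNA5 was at 35.0 ± 1.00 FPKM in C4-2B and 35.8 ± 7.92 FPKM in the resistant line (SD, n = 3), with a log2 fold change of 0.0053 ± 0.14 (SE), and EFNA1 was at 19.2 ± 0.88 and 19.5 ± 5.58 FPKM (log2 fold change 0.0072 ± 0.22). Without RC4-2B replicate 2, EFNA5 was at -0.17 and EFNA1 at 0.24 (edgeR adjusted p = 0.18 and 0.085). With the correction for GC content as well, EFNA1 passed the threshold (0.27, edgeR adjusted p = 0.044) and EFNA5 did not (-0.22, adjusted p = 0.061). EFNA4 was at 16.3 ± 1.02 and 11.6 ± 3.94 FPKM, with overlapping libraries (log2 fold change -0.51 in all, -0.26 with RC4-2B replicate 2 left out).

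None of the 9 tested EPH receptors passed the threshold. EPHA3, the most abundant EPHA receptor and a partner of EFNA5, had 832, 1186 and 1316 counts in the C4-2B libraries against 1279, 1753 and 1464 in those of RC4-2B. Scaled to the library totals the lines did not overlap, at 63.9 ± 12.9 CPM against 88.6 ± 10.2 CPM (SD, n = 3), and the log2 fold change was 0.47 ± 0.17 (SE, edgeR unadjusted p = 0.022, adjusted p = 0.17). EPHB4, the usual receptor of ephrin-B2, was the most abundant EPHB receptor at 15.7 ± 0.87 FPKM in C4-2B and 14.0 ± 3.35 FPKM in RC4-2B (log2 fold change -0.18 ± 0.19). EPHB3, EPHB2 and EPHB6 had log2 fold changes of 0.12, 0.25 and 0.51 with standard errors of 0.17, 0.18 and 0.23. EPHA1, EPHA2, EPHA6 and EPHA10 lay between -0.56 and 0.21, the lowest being EPHA10, which was at -0.22 without RC4-2B replicate 2.

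EPHA5 and EPHA7 had too few counts for the test and were seen almost only in C4-2B. EPHA5 had 10, 7 and 13 counts in the C4-2B libraries against 0, 0 and 2 in those of RC4-2B. No RC4-2B library exceeded the floor of 3 counts per library. The mean EPHA5 level in C4-2B was 3.24 times this floor in CPM, a value that leaves out the counting error of these few counts. EPHA7 had 3, 11 and 9 counts in the C4-2B libraries against 1, 0 and 0 in those of RC4-2B. When all genes with at least 1 count entered edgeR's test, the adjusted p-values were 0.015 for EPHA5 and 0.028 for EPHA7. That fit called 7 members lower and 3 higher of 66, against 2.22% and 2.07% of 29109 genes. EPHA5 and EPHA7 are described here because they were seen almost only in C4-2B, so their p-values there add no separate support. EPHA4, EPHA8 and EPHB1 had at most 5 counts in any library.

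SEMA3C, a secreted semaphorin that acts through neuropilins and plexin D1, was the third member that fell. It lies on the minus strand of chromosome 7 (80742538 to 80922359). Its counts were 986, 1036 and 1308 in the C4-2B libraries against 491, 741 and 588 in those of RC4-2B, without overlap. It fell from 64.0 ± 9.07 CPM to 35.8 ± 5.88 CPM (SD, n = 3), with a log2 fold change of -0.84 ± 0.16 (SE, edgeR adjusted p = 0.040). As for EFNB2, the call held only without RC4-2B replicate 2 (adjusted p = 9.10e-05) among the fits with 1 library fewer. It was 0.17, 0.14 and 0.18 for C4-2B replicates 1 to 3 left out, 0.056 and 0.14 for RC4-2B replicates 1 and 3, and 0.062 with the replicate block.

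The other tested class 3 semaphorins had log2 fold changes below 0 and none passed the threshold with all libraries. SEMA3G had 308, 318 and 317 counts in the C4-2B libraries against 260, 156 and 184 in those of RC4-2B (log2 fold change -0.60 ± 0.22, edgeR unadjusted p = 0.024, adjusted p = 0.18, and -0.43 without RC4-2B replicate 2). SEMA3B was at -0.77 with a standard error of 0.35 (-0.44 without RC4-2B replicate 2), and SEMA3F at -0.20 with a standard error of 0.13. Corrected for GC content, SEMA3F was at 0.17. Summed per length, the class 3 semaphorins stood at 20.2 ± 1.45 FPKM in C4-2B and 14.0 ± 0.67 FPKM in RC4-2B (SD, n = 3). SEMA3C made up most of that difference, at 9.15 ± 1.36 and 5.22 ± 0.98 FPKM. SEMA3C exceeded SEMA3F in all C4-2B libraries, by 1.17- to 1.61-fold, and in RC4-2B replicate 2 alone of its line. SEMA3A, the classic repellent of the family, SEMA3D and SEMA3E could not be tested, and SEMA3A had 1 count in all.

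Neither a neuropilin nor a plexin was called. NRP1, the neuropilin present in these cells, had 795, 843 and 770 counts in the C4-2B libraries against 633, 816 and 621 in those of RC4-2B (log2 fold change -0.18 ± 0.13, edgeR adjusted p = 0.41), and NRP2 had at most 8. PLXND1, the plexin that SEMA3C uses with a neuropilin, had 33, 47 and 54 counts in the C4-2B libraries against 78, 69 and 103 in those of RC4-2B, without overlap. Its log2 fold change was 0.94 ± 0.26 (SE, edgeR unadjusted p = 0.0059, adjusted p = 0.10), and the adjusted p-value was 0.0085 without RC4-2B replicate 2. PLXNB2 was the most abundant of the 69 genes per length at 48.7 ± 1.41 FPKM in C4-2B and 47.1 ± 5.51 FPKM in RC4-2B (SD, n = 3), with a log2 fold change of -0.071 ± 0.12 (SE). The other 6 tested plexins, among them PLXNA1 at 7.60 ± 0.65 and 6.32 ± 0.90 FPKM, lay between -0.52 and 0.40 on the log2 scale, the lowest being PLXNB3, which was at -0.15 without RC4-2B replicate 2.

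Of the 13 semaphorins of classes 4 to 7, 9 were tested and none was called. SEMA6A, a transmembrane ligand of A-type plexins, had 362, 430 and 382 counts in the C4-2B libraries against 437, 519 and 503 in those of RC4-2B, without overlap (log2 fold change 0.35 ± 0.12, edgeR unadjusted p = 0.020, adjusted p = 0.17). SEMA4A, the most abundant of them, was at 6.58 ± 0.33 and 6.40 ± 0.33 FPKM (SD, n = 3). SEMA4B was at 3.70 ± 0.17 and 4.20 ± 0.86 FPKM, and passed the threshold only where RC4-2B replicate 2 was left out (log2 fold change 0.33, adjusted p = 0.040) or its GC trend was corrected for (0.47, adjusted p = 0.019). The other 6, SEMA4C, SEMA4D, SEMA4F, SEMA6C, SEMA6D and SEMA7A, had log2 fold changes between -0.36 and 0.67.

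**Figure D3:**
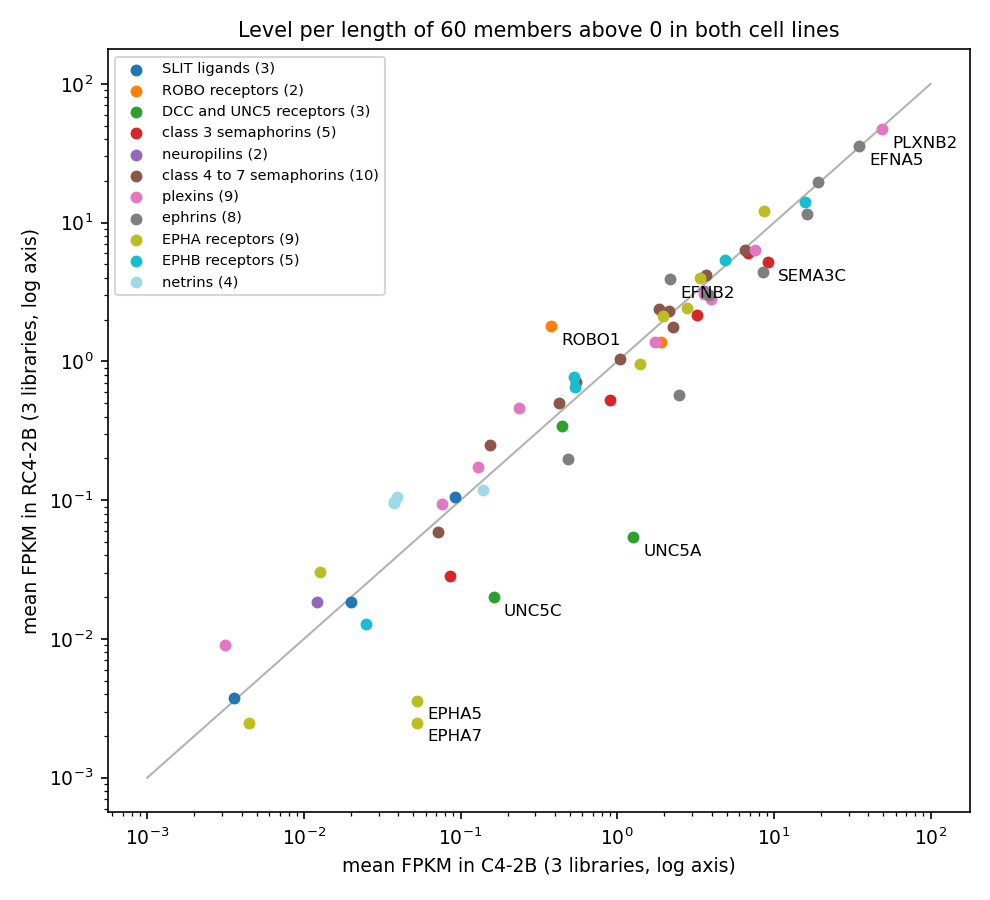
Mean deposited FPKM in C4-2B (horizontal, log axis) and RC4-2B (vertical, log axis) of the 60 genes above 0 in both lines, coloured by role, with the line of equal level. PLXNB2 and EFNA5 mark the upper end near the line, UNC5A, UNC5C, EPHA5 and EPHA7 lie below it, and ROBO1 lies above it.

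Levels spanned a wide range. A mean of at least 1 FPKM over the 6 libraries was reached by 31 of the 69 genes, among them 7 of 8 ephrins, 6 of the 13 semaphorins of classes 4 to 7, 5 of 9 plexins and 5 of 9 EPHA receptors, but by no SLIT, netrin, DCC or UNC5 gene. At the other end, 10 genes were at or under 3 counts in every library. A low count in this table does not by itself show a silent gene. CDC42, a GTPase that cells in general express and a partner of this pathway, had 3 to 8 counts per library, and how the authors counted reads shared between genes is not given in the sources used here.

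**Figure D4:**
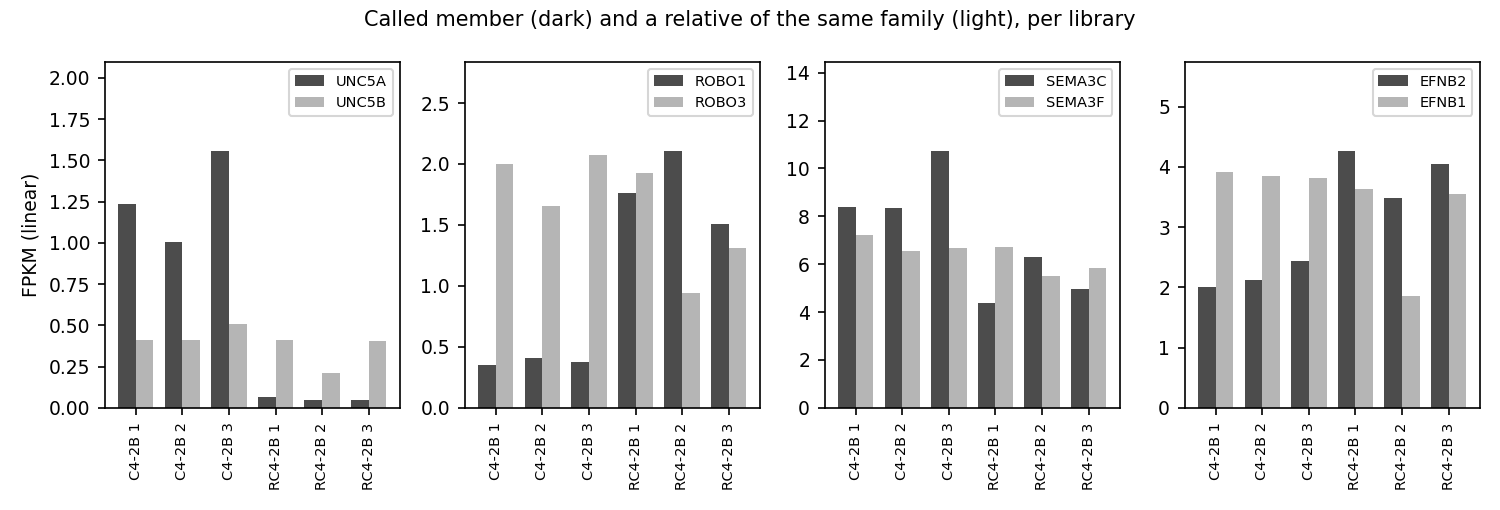
Deposited FPKM (linear axes from 0) per library of 4 genes called between the lines (dark bars) and of a relative of each (light bars). UNC5A is above UNC5B in the 3 C4-2B libraries and below it in the 3 RC4-2B libraries, and EFNB2 and EFNB1 change places the other way.

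The relatives in these pairs were picked after their values had been seen, so their order is a description with no test.

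The sequence just upstream of 4 of the 5 called genes is shown so that the regulatory context of the genes that rose, ROBO1 and EFNB2, and of UNC5A and SEMA3C, which fell, can be read side by side. Each run is the 200 bases of GRCh38 before the outermost annotated start (the deposited gene's 5′ end or the nearest RefSeq start, in GRCh38.p14), read 5′ to 3′ on the strand of the gene. Capitals mark GGGCGG, the GC box of SP1-type factors, on either strand. The windows are chr5:176810277-176810476, plus strand, for UNC5A, chr7:80922390-80922589, minus strand, for SEMA3C, chr3:79767999-79768198, minus strand, for ROBO1, and chr13:106535663-106535862, minus strand, for EFNB2.
UNC5A: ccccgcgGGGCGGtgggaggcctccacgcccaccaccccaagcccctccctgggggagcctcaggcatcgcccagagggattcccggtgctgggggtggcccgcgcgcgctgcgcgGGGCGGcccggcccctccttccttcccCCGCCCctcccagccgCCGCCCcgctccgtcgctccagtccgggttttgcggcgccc
SEMA3C: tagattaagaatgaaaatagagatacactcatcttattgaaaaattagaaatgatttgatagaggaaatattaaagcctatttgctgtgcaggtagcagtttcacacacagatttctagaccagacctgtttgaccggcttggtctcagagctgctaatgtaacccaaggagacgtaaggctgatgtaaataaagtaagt
ROBO1: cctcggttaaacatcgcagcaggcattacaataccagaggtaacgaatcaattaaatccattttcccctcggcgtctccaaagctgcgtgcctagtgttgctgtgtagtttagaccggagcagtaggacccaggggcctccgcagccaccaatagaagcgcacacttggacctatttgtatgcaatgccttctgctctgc
EFNB2: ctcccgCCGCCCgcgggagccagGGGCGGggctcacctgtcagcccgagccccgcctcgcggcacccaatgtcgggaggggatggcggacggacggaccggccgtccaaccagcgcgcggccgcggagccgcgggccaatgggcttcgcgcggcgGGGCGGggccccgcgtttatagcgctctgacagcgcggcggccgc

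The 4 windows differed in base composition and in the motifs found. UNC5A held the GC box 4 times and EFNB2 3 times, and SEMA3C and ROBO1 not at all, while 53.8% of the 12440 windows of tested protein-coding genes held it. GC content was 80% for UNC5A and 36.5% for SEMA3C, against 51.5% for ROBO1, 79.5% for EFNB2 and a median of 63.0% over all windows. TATAAA was found once in EFNB2 and in 4.5% of all windows, and CCAAT in EFNB2 and ROBO1 and in 29.2% of all windows. CACGTG, the E-box of MYC-type factors, was in none of the 4 windows and in 6.8% of all. Both strands were searched, a match of letters is not a binding site, and ROBO1 and SEMA3C have a further RefSeq start that is not shown.

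Genes that overlap the called members could add reads to them, those on the other strand only where counting ignored strand. AL138689.1 within EFNB2 and RN7SL751P within ROBO1 lie on the strand of the member, and the others on the opposite strand. Their counts were below those of the members, least so in UNC5C. The antisense gene AC106881.1 within UNC5C had 18 counts in the C4-2B libraries together and 0 in RC4-2B, against 101 and 12 for UNC5C. Whether it added reads to UNC5C was not tested. AL138689.1 within EFNB2 had 10 and 1, AL138689.2 within EFNB2 had 0 and 3, and HK3 beside UNC5A had 0 in both lines. Within ROBO1, RN7SL751P had 0 and 1, and AC055731.1 and MIR3923 had 0 in both lines. No gene of the table overlapped SEMA3C.

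Downstream and associated genes of the pathway, 83 in a list set by function, held few calls. Of these 67 were tested, 2 were higher (2.99%, against 1.08% of all tested genes) and 1 was lower (1.49%, against 0.903%), and the median log2 fold change was 0.11. DPYSL5, a collapsin response mediator protein, had 287, 305 and 268 counts in the C4-2B libraries against 479, 536 and 519 in those of RC4-2B (log2 fold change 0.87 ± 0.12, edgeR adjusted p = 0.015). TIAM1, an exchange factor that activates RAC downstream of ephrins, had 17, 15 and 15 counts in the C4-2B libraries against 37, 55 and 46 in those of RC4-2B (log2 fold change 1.58 ± 0.27, edgeR adjusted p = 0.028). NTNG1, a membrane-anchored netrin G that does not bind DCC, had 61, 73 and 91 counts in the C4-2B libraries against 17, 37 and 22 in those of RC4-2B (log2 fold change -1.53 ± 0.30, edgeR adjusted p = 0.047). None of these 3 calls held when C4-2B replicate 1, 2 or 3 or RC4-2B replicate 3 was left out (adjusted p of 0.076 to 0.20), nor did that of NTNG1 without RC4-2B replicate 1 (0.060), and with the replicate block the values were 0.050, 0.074 and 0.070, all above the threshold.

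RC4-2B replicate 2 stood apart in these genes too. It was lower than the mean of RC4-2B replicates 1 and 3 in 33 of the 45 tested genes, with differences from -1.64 (EFNA3) to 0.76 (UNC5C) on the log2 CPM scale. Across these 45 genes, which share the libraries, the difference followed the GC content of the longest transcript with a Spearman correlation of -0.70, beside -0.66 across 14987 tested genes. EFNA2, EFNA3, SEMA3B and PLXNB3, with a GC content of 61.8% to 65.1%, were among the genes most reduced in this library. Without it, 5 of 46 tested members were higher and 5 lower (10.9% each, against 6.50% and 6.02% of 15378 tested genes). The 5 called with all libraries were among them, and the others were PLXND1, SEMA4B and NTN1, the last of which passed the filter only through RC4-2B, among the higher genes, and EFNA2 and EFNA3 among the lower. With the correction for GC content and all 6 libraries, 4 members were higher and 4 lower (against 4.36% and 3.25% of 15054 tested genes), the same 5 with PLXND1 and SEMA4B, which were higher, and EFNA2, which was lower. Calls over all genes rose in both fits as well.

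**Figure D5:**
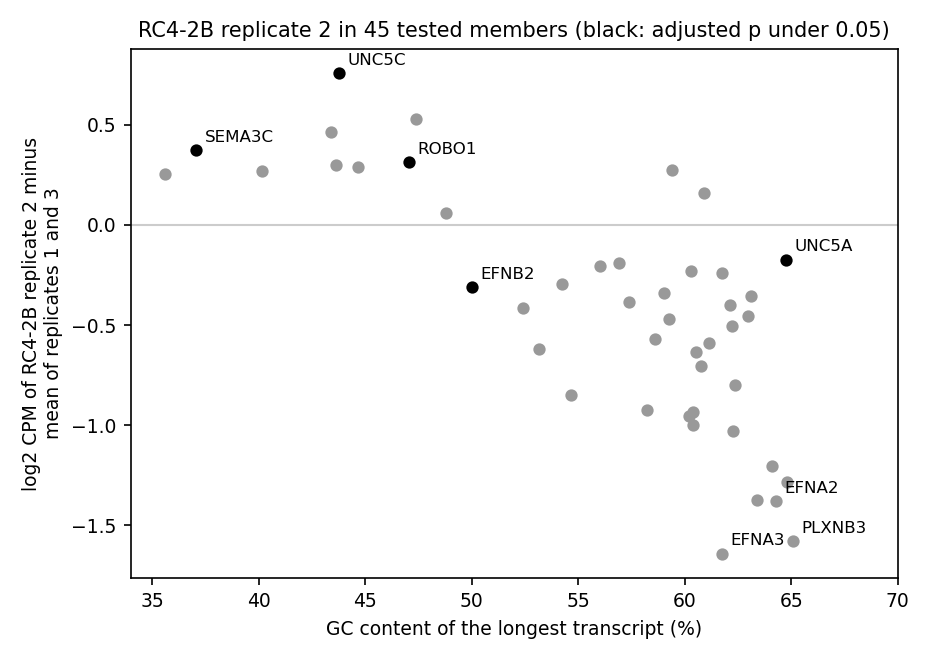
Difference in log2 CPM between RC4-2B replicate 2 and the mean of RC4-2B replicates 1 and 3 (vertical) against the GC content of the longest transcript in percent (horizontal) for the 45 tested genes, with black points for an adjusted p-value under 0.05. Genes with a high GC content, such as EFNA3, PLXNB3 and EFNA2, lie lowest, and UNC5C and SEMA3C, with a low GC content, lie above 0.

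For each of the 5 called genes taken alone, an exact permutation test on log2 CPM gave a two-sided p of 0.1, the smallest that 3 libraries against 3 allow. The labels do not say whether the replicates were separate cultures, so the p-values measure the spread between these libraries.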

How the data were processed

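RNAseq libraries of C4-2B and RC4-2B (3 each) were compared. Reads were aligned to GRCh38 by the authors with STAR. The deposited counts are whole reads per gene without normalization, and the deposited FPKM are these counts over gene length and 1 constant per library. The counter, its strand setting and its annotation release are not given in the sources used here. The paper names both 10% charcoal-stripped and 10% fetal bovine serum. Columns were matched to samples by their labels.

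Counts were scaled by TMM, filtered by filterByExpr and tested with edgeR 4.0.16 (R 4.3.3) by glmQLFTest, with the line as the only term and Benjamini-Hochberg adjustment over all tested genes at 0.05. The study itself used DESeq2. Each standard error is the size of the log2 fold change over the square root of F. The fit was also run on simulated data, and no error rate from that run is given here. Levels between genes were compared only in FPKM. The members, role classes and gene lists were chosen with earlier results of these data known. Named genes are members with an unadjusted p under 0.05, the 3 most abundant of each class, members at the floor in 1 line, and partner genes past the threshold. Further members named were chosen after their values were seen. All pairs of libraries within a line differed by more than counting noise (chi-square per gene 3.38 to 65.4).

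Alternatives were DESeq2 1.42.0, RLE or upper-quartile scaling, other filters, protein-coding genes alone, a replicate block, each library left out, a prior count of 2 and limma 3.58.1 on log2(FPKM + 1) and log2(FPKM + 0.1). A GC correction smoothed each library's deviation from the gene mean (lowess, span 0.2) over the GC content of the longest GENCODE release 44 transcript, known for 99.6% of tested genes, and used it as an offset. The GC correction without RC4-2B replicate 2 was added after the data were seen. Some sequence results are not reported here.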

Additional observations from a re-analysis of the deposited data

How the results depend on the processing

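UNC5A and ROBO1 kept their direction and an adjusted p-value under 0.05 under every alternative except limma on log2(FPKM + 1) without a filter, where the adjusted p-values were 0.051 and 0.089. SEMA3C and EFNB2 were each called in 11 of 20 alternatives and UNC5C in 13 of 18, always in the same direction. The prior count of 2 is among these alternatives and changes the fold change but not the p-value. Its calls therefore repeat the main fit and add no support. Over the 48 genes followed, 51 of 930 values changed sign, in 16 genes with a main log2 fold change of at most 0.52 in size, and in none was the gene past the threshold before or after.

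Counts of calls over all tested genes moved too, and their shares stand in brackets, higher then lower. With each library left out, 1 to 5 members were higher and 1 to 5 lower, and 0 to 7 partner genes higher and 0 to 5 lower, from the fit without C4-2B replicate 1 (0.0838% and 0.2%) to that without RC4-2B replicate 2 (6.50% and 6.02%). With no filter on low counts (2.07% and 2.22%), 3 members were higher, with PLXND1 added, and 7 lower, with EPHA5, EPHA7, EFNA2 and EFNA3 added, and 6 partner genes were higher and 5 lower. With the GC correction (4.36% and 3.25%) 4 members and 5 partner genes were higher, and 2 partner genes lower. With the GC correction and without RC4-2B replicate 2 (6.74% and 6.59%), 8 members were higher and 6 lower, and 7 partner genes were higher and 4 lower. DESeq2 (3.28% and 2.64%) called 4 partner genes higher and 4 lower, and its members were 2 higher and 4 lower, the latter with EFNA2. Limma with the filter called 1 member higher and 1 lower for either pseudocount, and 1 partner gene higher and 0 lower. Its shares were 0.384% and 0.484% with a pseudocount of 1, and 0.325% and 0.392% with 0.1. Without the filter limma called 0 in each group (0.0447% and 0.0790%). Fewer genes passed the FPKM filter (32 of the members), and why the remaining counts moved was not tested.

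Whether the replicate numbers pair the libraries was not tested. The correlation of deviations from the line mean was 0.14, 0.084 and -0.011 for numbers 1 to 3. For C4-2B replicates 1 and 2 the same number gave the highest value, while C4-2B replicate 3 correlated better with RC4-2B replicate 2 (0.054). With the replicate number as a block (0.365% and 0.492% of all tested genes), 1 member was higher and 2 lower, and 0 partner genes were higher or lower. With the block and the GC correction (4.26% and 3.75%), 5 members were higher and 4 lower, and 7 partner genes were higher and 2 lower.

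Depth limits the low genes. With a floor of 0.170 to 0.188 CPM, SLIT2, SLIT3, the netrins, EPHA4, EPHA8 and EPHB1 were too low for the test with all 6 libraries. With 3 libraries a line, no library was tested as an outlier.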
